A study of Citrus sinensis and Citrus junos and Citrus trifoliata with 12 samples.

Results

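The genes described here are stem-specific genes of grafted orange trees: 146 of the 26559 gene IDs listed in at least 1 of 12 RNA-seq libraries. They were chosen by their FPKM, a level scaled by the authors for gene length and library size. A member had at least 5 FPKM in all 4 stem libraries, and its lowest stem value was at least 4 times the highest of its 8 root and leaf values. In addition, the ratio of its mean stem level on the 2 rootstocks lay strictly between 2/3 and 1.5. A gene not listed in a library counted as 0. The stem level against root and leaf, and the stem level on Cj against Pt, were therefore used for the choice; they are given as descriptions, with no test.

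The libraries formed 6 groups of 2, from roots, stems and leaves at the stage labelled 140 DAF. The scion of every tree was 'Lane Late' navel orange (Citrus sinensis), grafted on Ziyang xiangcheng (Citrus junos, Cj) or on trifoliate orange (Poncirus trifoliata, Pt), and all trees were planted in 2009 in a single orchard. Stem and leaf libraries are labelled as the scion, and root libraries as the rootstock. A difference between Cj and Pt roots is thus also a difference between species, and a difference between leaf and root is also a difference between scion and rootstock; in these groups organ, species and how well reads of each species match the gene set cannot be told apart. The title of the series names saline-alkali stress, but no label marks a library as stressed or unstressed. Whether replicates of a group are separate trees is not stated either; the spread that p-values rest on is that between libraries and may be technical.

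As background, the stem of a woody plant joins roots and leaves through vascular tissue. A ring of dividing cells, the cambium, forms xylem, whose conduits with lignified walls carry water upward, and phloem, which moves sugars from the leaves. Stems also hold bark, pith and storage cells. Leaf veins and roots also contain xylem and phloem. The files pair no ID with a gene name, and 0 of the 146 members matched an entry of the RefSeq table of Citrus sinensis, so no function is stated for any member. For the same reason the labelled organs could not be checked against marker genes, and no pathway list could be applied.

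The libraries held 9356633 to 11383332 estimated counts and listed 20953 to 23152 genes. No pair of replicates agreed within sampling noise: the chi-square per degree of freedom of their counts ran from 2.86 to 11.8 over the 6 groups. In the stem-specific genes the replicates of leaf on Cj differed from each other, and the counts of called members over all 146 that use them are given with and without each.

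In the stem the members ranged over nearly 3 orders of magnitude. Their mean stem level ran from 6.65 to 5089 FPKM with a median of 29.0 FPKM. Of the 146 members, 4 had a mean stem level of at least 1000 FPKM, 22 of at least 100 FPKM and 46 of under 20 FPKM. The median ratio of the lowest stem value to the highest root or leaf value was 5.98. This ratio was 10 or more in 36 members, counting those at 0 outside the stem, and under 5 in 47 members.

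The members nearest to the threshold were Cs6g02570, with a lowest stem value of 25.07 FPKM against a highest root or leaf value of 6.24 FPKM, and Cs2g06880, with 13.94 against 3.46 FPKM. Just outside lay Cs4g01940, with 13.72 against 3.44 FPKM, and orange1.1t02608, with 99.02 against 25.04 FPKM. A further 28 genes met the stem criteria but fell outside the window of the ratio between rootstocks, 14 of them higher on Cj and 14 higher on Pt.

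Cs4g09550 and Cs8g06620 dominated the group, and held 44.6% of its summed stem level. Among all genes they held ranks 2 and 3 by mean stem FPKM. Cs4g09550 stood at 4459 and 6743 FPKM in stems on Cj and at 3900 and 5252 FPKM in stems on Pt. In leaf it stood at 87.35 and 41.52 FPKM on Cj and at 91.87 and 83.03 FPKM on Pt, and in the 4 root libraries between 0.46 and 0.67 FPKM. Its lowest stem value was thus 42.5 times the highest value found outside the stem.

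For Cs8g06620 the stem values were 4822 and 4773 FPKM on Cj and 3925 and 4919 FPKM on Pt. Its leaf values were 145.8 and 39.12 FPKM on Cj and 120.2 and 123.7 FPKM on Pt, and it was listed in no root library. Its neighbour in the numbering, Cs8g06630, had the same order of organs at a lower level. Cs8g06630 stood at 215.8 and 199.7 FPKM in stems on Cj, 208.8 and 177.6 FPKM in stems on Pt, and 10.1 to 23.1 FPKM in leaf, and it too was listed in no root library. These IDs were the only members that followed each other directly among the listed IDs. Cs4g09550 and Cs8g06620 had estimated counts that were not whole in at least 1 stem library, so their counts are estimates, and whether reads were shared with other genes was not tested.

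The next members by stem level, Cs9g03590, Cs3g21510, Cs2g20010 and Cs3g05115, were also present outside the stem. Cs9g03590 stood at 1230 and 1178 FPKM in stems on Cj and at 1308 and 2059 FPKM in stems on Pt. Cs3g21510 stood at 1160 and 1384 FPKM on Cj and at 1376 and 1470 FPKM on Pt. Stem values of Cs2g20010 were 996.5 and 943.4 FPKM on Cj and 879.5 and 957.4 FPKM on Pt. The stem level of Cs3g05115 was 608.7 and 897.5 FPKM on Cj and 666.1 and 800.7 FPKM on Pt. The stem values on Cj and Pt overlapped in Cs3g21510, Cs2g20010 and Cs3g05115, and in Cs9g03590 both values on Pt lay above both on Cj. Counts of Cs9g03590, Cs3g21510 and Cs3g05115 were also not whole. The 10 members of highest stem level held 73.6% of the summed stem level.

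At the other end were members that were nearly silent outside the stem. Cs8g15080 and orange1.1t05641 were the 2 members with no count in any root or leaf library. Cs8g15080 stood at 12.41 and 17.26 FPKM in stems on Cj and at 12.63 and 12.37 FPKM in stems on Pt. Set against a floor of 3 counts per library, its lowest stem value was at least 19.0-fold higher than any root or leaf library could hold. The stem values of orange1.1t05641 were 19.16 and 28.80 FPKM on Cj and 31.16 and 8.43 FPKM on Pt, so its replicates on Pt lay further apart than the rootstocks, and its lowest stem value was at least 7.98-fold higher than the same floor. These bounds cover counting error only.

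Cs2g20850 stood at 21.95 and 27.65 FPKM in stems on Cj and at 22.31 and 24.11 FPKM in stems on Pt. Outside the stem it was listed in both Cj root libraries alone, at 0.08 FPKM in each. Cs4g11180 and Cs2g02590 had stem values of 18.51 to 36.37 FPKM and 14.22 to 20.42 FPKM, and reached at most 0.19 and 0.15 FPKM outside the stem. Cs2g27530 was the most abundant of these 6 members, at 104.2 and 101.6 FPKM in stems on Cj and 83.07 and 95.56 FPKM in stems on Pt, and reached 1.74 FPKM in Pt leaf replicate 2. In all, 19 of 146 members stayed under 1 FPKM in all 8 root and leaf libraries, and 57 reached at least 5 FPKM in at least 1 of them.

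**Figure D1:**
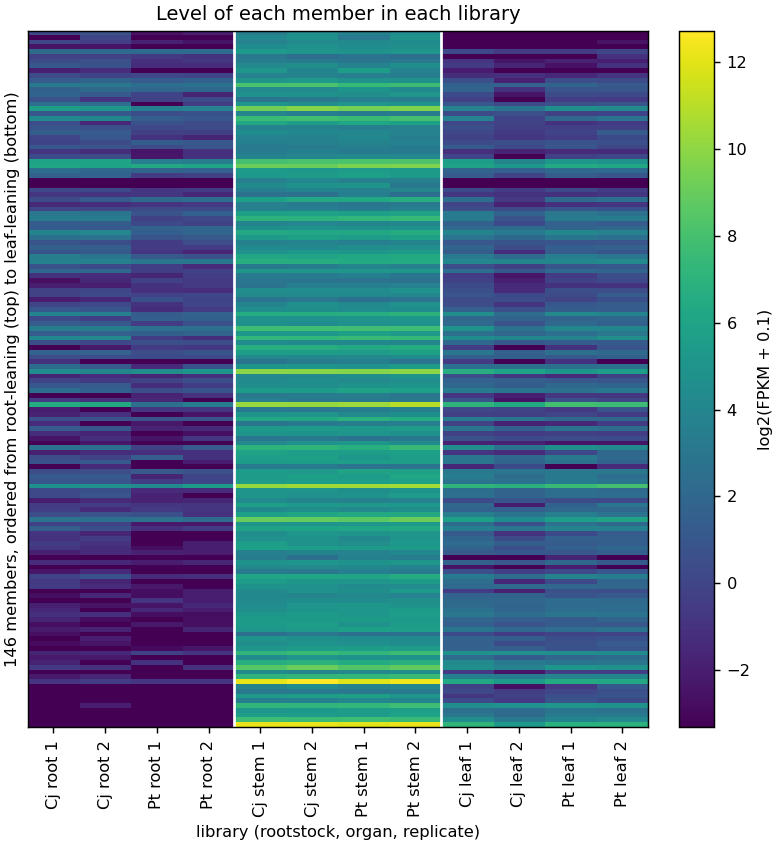
Level of each of the 146 members in each of the 12 libraries, as log2(FPKM + 0.1), with libraries in columns grouped as root, stem and leaf (white lines) and members in rows ordered from root-leaning to leaf-leaning. Within each row the 4 stem columns are brighter than the root and leaf columns. Among the others the Pt root columns are the darkest, with 37 and 34 members at 0, and Cj leaf replicate 2 is darker than the other leaf columns.

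The choice was also made on the libraries of 1 replicate number and read in the other, which the choice had not used. Replicates are not stated to be separate trees, so the libraries read may be repeats of the same trees. Of 160 genes chosen on the libraries numbered 1, all 160 had both stem libraries numbered 2 above the highest root or leaf library numbered 2, and 139 (86.9%) kept a 4-fold margin there. Of 257 genes chosen on the libraries numbered 2, 256 had both stems above every root and leaf library numbered 1, and 168 (65.4%) kept the 4-fold margin. The ratio between rootstocks stayed in the window for 147 (91.9%) of the first list and 197 (76.7%) of the second. The median ratio of stem to the highest other library was 6.13 in the libraries used and 6.99 in those not used for the first list, and 6.74 and 4.74 for the second.

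Summed over members, the stem libraries held 20421 and 23463 FPKM on Cj and 19405 and 23690 FPKM on Pt, which was 3.11% to 3.80% of all FPKM in a library. The leaf libraries held 1469 and 816 FPKM on Cj and 1463 and 1496 FPKM on Pt. In roots the sum was 606 and 551 FPKM on Cj and 273 and 308 FPKM on Pt. In FPKM all leaf libraries thus lay above all root libraries, and both Cj root libraries above both Pt root libraries. Cj leaf replicate 2 lay below the other 3 leaf libraries. These sums are without the TMM scaling between libraries. Its factors were 0.78 to 0.85 in roots and 1.05 to 1.08 in leaf, so dividing by them narrows the gap between leaf and root. With 2 libraries against 2, an exact two-sided permutation test of such a sum cannot give a p below 1/3, so the sums were not tested.

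Relative to each member's own mean stem level, the median member stood at 3.15% and 3.14% in Cj roots, 1.20% and 1.21% in Pt roots, 10.6% and 5.74% in Cj leaf and 8.20% and 9.39% in Pt leaf. In bulk tissue, fewer cells of a type and less RNA per cell cannot be told apart. Between 34 and 37 members were at 0 in the Pt root libraries, 23 and 24 in the Cj root libraries and 8 to 14 in the leaf libraries. The highest value outside the stem was in a leaf library for 113 members and in a Pt root library for 4. The 2 members with no count in any root or leaf library had no such value, and the rest had it in Cj roots.

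**Figure D2:**
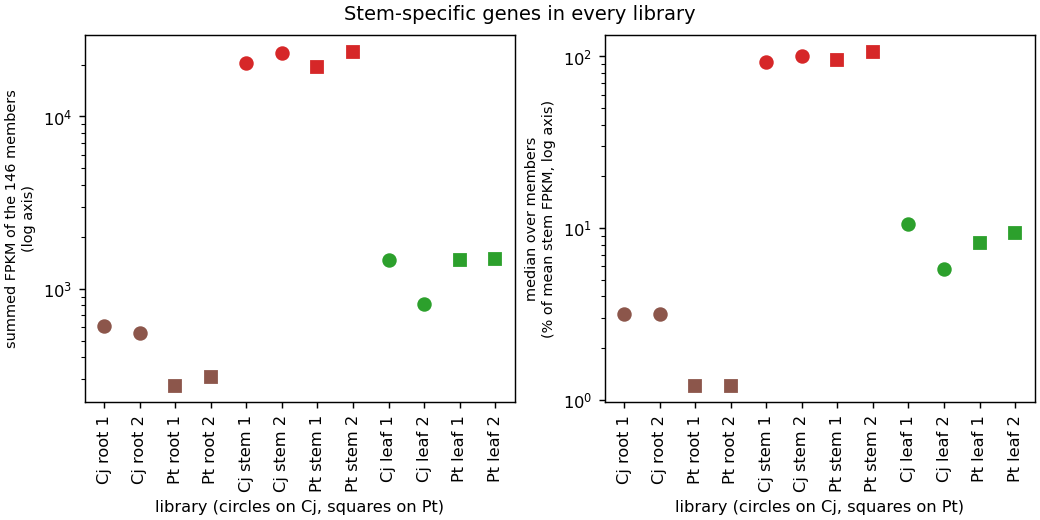
Left, summed FPKM of the 146 members in each library (log axis); right, median over members of the level as a percentage of the member's mean stem FPKM (log axis), with circles for libraries of trees on Cj, squares for Pt and colours for organs. Pt roots are lowest at 273 and 308 summed FPKM, Cj roots follow at 606 and 551, and Cj leaf replicate 2 lies at 816 against 1463 to 1496 in the other leaf libraries.

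Members differed between the roots of the rootstocks mostly in 1 direction. Of the 146 members 49 were higher in Cj roots and 5 lower, by edgeR's quasi-likelihood test, fitted over all 21261 genes tested, with a Benjamini-Hochberg adjusted p under 0.05. Over all genes tested the same call was made for 27.4% as higher and 24.3% as lower, against 33.6% and 3.42% of the members, and in either direction for 51.7%, against 37.0%. The median log2 fold change was 0.77 over the members and 0.02 over all genes tested. A total of 34 of the 49 and 3 of the 5 differed at least 4-fold. With each of the 12 libraries left out in turn, 27 of the 49 and 2 of the 5 were called every time. Neither count was taken over all genes tested, here or in the other comparisons, so both describe the members alone. All 146 members passed the filter on low counts because they are high in stem, and many had few counts in root, where 13 were at 0 in all 4 libraries.

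Among the 60 members with a mean of at least 1 FPKM over the 4 root libraries, 33 were higher and 2 lower in Cj roots. The median log2 fold change of these 60 was 1.15. Of all genes tested with such a mean, 29.7% were higher and 28.8% lower. In FPKM, both Cj root libraries lay above both Pt root libraries for 72 members, and the reverse held for 22, against 37.3% and 39.3% of all genes tested. The 49 members called higher in Cj roots stood there at a median of 7.87% of their mean stem level, and at 1.64% in Pt roots; 14 of them had at least 5 FPKM in both Cj root libraries.

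Among called members with a mean of at least 1 CPM in the higher roots, Cs8g04470 had the largest log2 fold change. It stood at 17.48 and 18.35 FPKM in Cj roots and at 0.63 and 0.32 FPKM in Pt roots, with the log2 fold change at 5.27 ± 0.39 (SE, n = 2 each, adjusted p = 4.0e-07, edgeR). Its stem values were 154.4 and 155.0 FPKM on Cj and 178.2 and 166.8 FPKM on Pt, and its leaf values were 21.80 and 16.06 FPKM on Cj and 15.18 and 23.86 FPKM on Pt. The leaf values on Cj and Pt overlapped, and both stem values on Pt lay slightly above both on Cj.

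Cs9g03590, the third most abundant member in stem, stood at 97.77 and 84.09 FPKM in Cj roots and at 5.84 and 10.97 FPKM in Pt roots, which gave 3.51 ± 0.33 on the log2 scale (SE, n = 2 each, adjusted p = 3.1e-06, edgeR). Cs3g05115 stood at 47.82 and 36.28 FPKM in Cj roots and at 12.21 and 13.73 FPKM in Pt roots, or 1.76 ± 0.30 on the log2 scale (SE, adjusted p = 3.1e-04, edgeR). Cs7g01090 was present at 1.54 and 2.18 FPKM in Cj roots and at 0 and 0.14 FPKM in Pt roots. These are 27 counts against 1, a ratio of 26.1 with a 95% counting interval (Clopper-Pearson) from 4.29 to 1067, and the adjusted p was 0.0041 (edgeR). In all 4 genes the root libraries of the rootstocks did not overlap.

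In the other direction, Cs2g17110 stood at 0.13 and 0.26 FPKM in Cj roots and at 1.41 and 0.82 FPKM in Pt roots, with the log2 fold change at -2.41 ± 0.53 (SE, n = 2 each, adjusted p = 0.0022, edgeR). The levels of orange1.1t03274 were 0.06 and 0.24 FPKM in Cj roots against 0.75 and 0.57 FPKM in Pt roots, or -2.01 ± 0.74 on the log2 scale (SE, adjusted p = 0.036, edgeR). Its call was lost without Cj root replicate 1 (log2 fold change -1.38) and without either Pt root library (-1.78 and -2.23), with an adjusted p of 0.0556 to 0.209. Both genes were near the limit of detection in root: the lower group held 6 counts of Cs2g17110 and 5 of orange1.1t03274.

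Cs3g21510, Cs2g20010, Cs4g09550 and Cs8g06620, among the 6 most abundant members, were not called between the roots. Cs3g21510 stood at 26.93 and 27.62 FPKM in Cj roots and at 20.37 and 45.59 FPKM in Pt roots. Cs2g20010 had root values of 21.43 and 16.65 FPKM on Cj and 24.26 and 33.74 FPKM on Pt (log2 fold change -0.53 ± 0.25 SE, adjusted p = 0.092, edgeR). Cs4g09550 held 4 to 6 counts in each root library and Cs8g06620 was listed in no root library, which leaves little or no room to call a difference. Among the rest of these 6, the difference in roots was called in Cs9g03590 and Cs3g05115 alone. A missed threshold does not show equal levels in Cs3g21510 and Cs2g20010.

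**Figure D3:**
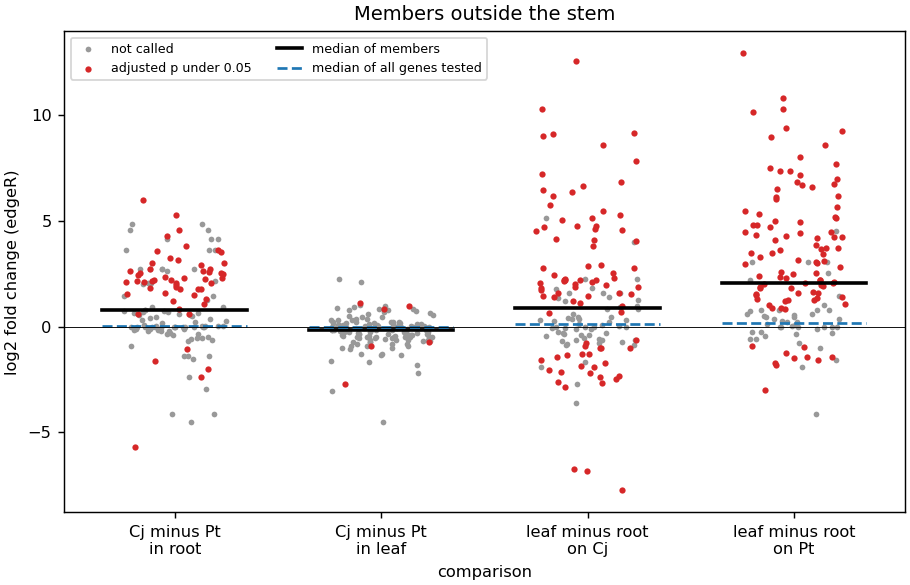
Log2 fold change (edgeR) of each of the 146 members in the 4 comparisons outside the stem, with called members in red, members not called in grey, the median of the members as a black bar and that of all genes tested as a dashed blue bar. Members lean above 0 in root (median 0.77) and in leaf minus root on Cj (median 0.88) and Pt (median 2.05). With all libraries in the fit they lie close to 0 in leaf (median -0.17), and that median moved with the Cj leaf library left out.

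Few members were called between rootstocks in leaf with all libraries in the fit. By the same test 3 members were higher and 3 lower in leaves on Cj, which is 2.05% each way, against 4.43% and 3.88% of all genes tested (8.31% in either direction). All 6 were among the 106 members with a mean of at least 1 FPKM over the leaf libraries; of all genes tested with such a mean, 5.05% were higher and 4.45% lower. In FPKM, both leaf libraries on Cj lay above both on Pt for 13 members and below for 24, against 22.9% and 26.1% of all genes tested. The median log2 fold change was -0.17 over the members and 0.00 over all genes tested. Cs9g04630 stood at 10.74 and 7.11 FPKM in leaves on Cj and at 4.17 and 4.21 FPKM in leaves on Pt, with the log2 fold change at 1.11 ± 0.19 (SE, n = 2 each, adjusted p = 0.0034, edgeR). Cs2g20010 stood at 104.0 and 64.50 FPKM on Cj and at 34.35 and 51.37 FPKM on Pt (log2 fold change 0.99 ± 0.23 SE, adjusted p = 0.020, edgeR). Lower on Cj were Cs8g20360, at 0.43 and 0.30 against 1.0 and 4.14 FPKM (log2 fold change -2.70 ± 0.69 SE, adjusted p = 0.030, edgeR), and Cs9g03590, at 141.0 and 86.42 against 230.1 and 201.2 FPKM (-0.91 ± 0.25 SE, adjusted p = 0.044, edgeR).

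The leaf comparison turned on which Cj leaf library was used. Of the 146 members 122 were higher in Cj leaf replicate 1 than in replicate 2 and 15 were lower, with a median log2 difference of 0.84. Among the 13727 genes with at least 5 FPKM in every stem library, 52.5% were higher in replicate 1, with a median log2 difference of 0.01. In leaves on Pt, 68 members were higher in replicate 1 and 71 in replicate 2. Without Cj leaf replicate 1, 1 member was higher and 28 were lower on Cj, against 3.53% and 2.95% of all genes tested in that fit, and the median log2 fold change was -0.64 over the members and 0.00 over all genes. Without Cj leaf replicate 2, 5 were higher and 0 lower, against 2.44% and 1.86% of all genes tested, with medians of 0.13 and 0.00. Each of these fits leaves 1 library of leaf on Cj, which is assumed to vary like the other groups.

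Calls of named members moved with it. Cs2g20010 was not called without Cj leaf replicate 1 (adjusted p = 0.151) or without Pt leaf replicate 1 (0.162). Cs8g20360 was not called without either Cj leaf library or without Pt leaf replicate 2 (adjusted p = 0.0991, 0.154 and 0.380, edgeR), and without Pt leaf replicate 2 its log2 fold change was -1.39. Cs9g03590 was not called without Cj leaf replicate 2 (adjusted p = 0.292), without either Pt leaf library (0.198 and 0.0966), without either Cj root library (0.0705 and 0.0712) or with the replicate number as a block (0.0504). Cs9g04630 kept its call in every fit that left out 1 library. With each of the 12 libraries left out in turn, 1 of the 3 higher and 0 of the 3 lower members were called every time.

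**Figure D4:**
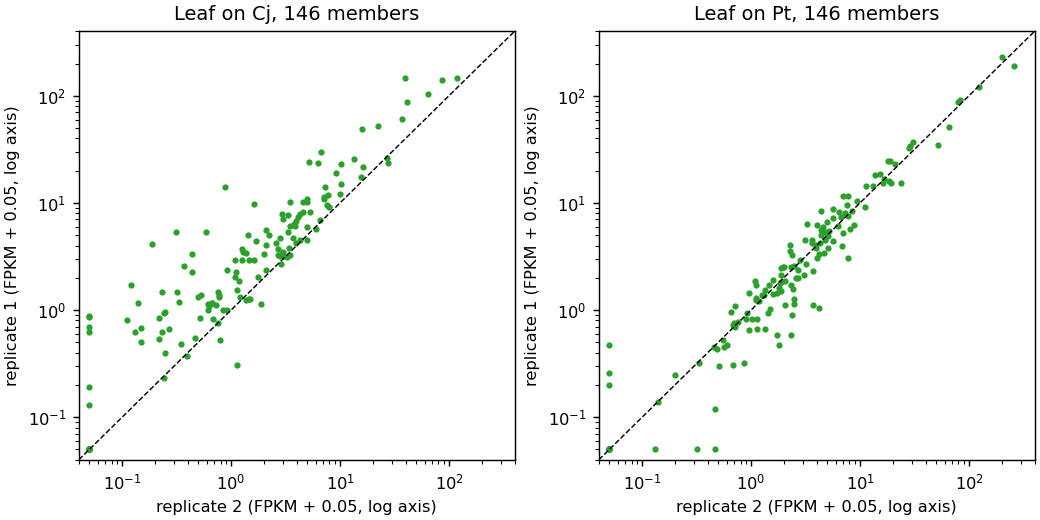
Level of the 146 members in replicate 1 (vertical) against replicate 2 (horizontal) of leaf on Cj (left) and leaf on Pt (right), in FPKM + 0.05 on log axes, with the line of equal values dashed. On Cj 122 members lie above the line and 15 below; on Pt 68 lie above and 71 below.

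Members had a median absolute log2 difference between replicates of 0.20 in stem on Cj and 0.26 in stem on Pt, and of 0.84 and 0.34 in leaf. For the genes with at least 5 FPKM in every stem library it was 0.16 in stem on both rootstocks, and 0.17 and 0.16 in leaf. The leaf values are of unlike levels, since the rule caps the members in leaf but not those genes. The members' median was 1.405 FPKM in Cj leaf replicate 2 and 3.15 FPKM in Cj leaf replicate 1. Their leaf spread covers only the 132 members on Cj and 134 on Pt above 0 in both libraries. The stem values chose the members, so their stem spread is a description. In stems on Pt, 91 members were higher in replicate 2 and 55 in replicate 1, against 47.8% and 52.1% of those genes. In stems on Cj, 87 were higher in replicate 2 and 59 in replicate 1, close to the 58.5% and 41.3% of those genes. Between stem replicates, 2 of 146 members on Cj and 4 on Pt differed more than 2-fold. Of the 13727 genes with at least 5 FPKM in every stem library, 169 and 85 did. The ratio of mean stem levels on Cj and Pt, limited by the rule, had a median of 0.953; it was above 1 for 62 members and below 1 for 84.

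On both rootstocks more members were higher than lower in leaf against root. In trees on Pt, 90 members were higher and 10 lower in leaf than in root, against 43.0% and 36.6% of all genes tested, or 79.6% in either direction (edgeR's quasi-likelihood test, adjusted p under 0.05). The median log2 difference was 2.05, against 0.17 over all genes tested. In trees on Cj, 60 were higher and 26 lower, against 42.2% and 38.3% of all genes tested, or 80.5% in either direction, with a median of 0.88 against 0.12. On Cj the members' share of higher calls, 41.1%, was near that of all genes, and their share of lower calls was 17.8%. Among members with a mean of at least 1 FPKM over the 4 libraries compared, 71 of 93 were higher and 6 lower in leaf on Pt, against 44.1% and 38.1% of such genes. On Cj 49 of 98 were higher and 20 lower, against 43.6% and 39.6%. Without overlap in FPKM, leaf lay above root on Pt for 110 members and below for 14, against 54.7% and 34.8% of all genes tested; on Cj these counts were 75 and 25, against 55.1% and 35.8%. Without Cj leaf replicate 1 the split on Cj was 48 higher and 41 lower, against 39.7% and 35.9% of all genes tested, and the members' median was 0.02. Without replicate 2 it was 73 and 20, against 39.7% and 35.8%, with a median of 1.20. With each of the 12 libraries left out in turn, 71 of the 90 higher and 4 of the 10 lower members on Pt were called every time, and 45 of the 60 and 18 of the 26 on Cj.

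Cs8g06620 and Cs8g06630 were at 0 in all root libraries. Against a floor of 3 counts per library, and taking the lower of the 2 leaf libraries, Cs8g06620 was at least 98.6-fold higher in leaf than in root on Cj (adjusted p = 3.6e-06, edgeR). From Cj leaf replicate 1 alone this bound was 367-fold. On Pt it was at least 294-fold higher (adjusted p = 2.2e-06, edgeR). Cs8g06630 was at least 29.5-fold higher in leaf on Cj (adjusted p = 3.4e-06, edgeR), and the bound from Cj leaf replicate 1 alone was 67.6-fold. The member orange1.1t05396 stood at 32.48 and 28.24 FPKM in leaves on Pt and at 0 in Pt roots, at least 63.7-fold higher by the lower library (adjusted p = 1.2e-08, edgeR). Its stem values were 148.6 and 152.6 FPKM on Cj and 155.0 and 211.9 FPKM on Pt.

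Fewer members were called higher in root than in leaf. Cs3g14590 stood at 1.07 and 1.47 FPKM in Cj roots and at 0 in all 4 leaf libraries, at least 5.83-fold higher in the lower Cj root library than the floor in leaf (adjusted p = 4.1e-04, edgeR). Its stem values spread from 10.75 to 23.10 FPKM. Cs5g05950 stood at 0.79 and 0.77 FPKM in Cj roots and at 0 in Cj leaf, at least 3.61-fold higher by the lower library (adjusted p = 8.1e-04, edgeR). Cs5g29680 was at 4.54 and 4.42 FPKM in Cj roots, 4.68 and 4.68 FPKM in Pt roots and 0.58 to 1.04 FPKM in leaf, and had a log2 difference of leaf minus root on Pt of -3.00 ± 0.27 (SE, n = 2 each, adjusted p = 2.7e-07, edgeR). The levels of orange1.1t02243 were 1.52 and 1.16 FPKM in Pt roots against 0.42 and 0.55 FPKM in Pt leaf (-1.80 ± 0.72 SE, adjusted p = 0.034, edgeR), and that call was lost without any 1 of those 4 libraries. Of the 146 members 6 had all 4 root libraries above all 4 leaf libraries, and 68 had the reverse, against 25.7% and 44.8% of all genes tested.

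The difference between rootstocks in root was also set against that in leaf, in a test of the difference itself added after seeing the data. It was more positive in root for 39 members and more negative for 6 (edgeR, adjusted p under 0.05), against 19.9% and 17.3% of all genes tested, or 37.1% in either direction. The median over members was 1.16 on the log2 scale, against 0.07 over all genes tested. Without Cj leaf replicate 1 the counts were 57 and 6, against 17.8% and 15.4% of all genes tested. Without Cj leaf replicate 2 they were 36 and 7, against 16.6% and 14.5%, and without Pt root replicate 1 they were 28 and 3, against 15.2% and 13.8%.

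Features outside the rule are given as descriptions, although FPKM is itself scaled by length. The members had a median length of 1289 bases against 1739 bases for the 13727 genes with at least 5 FPKM in every stem library. Of the members 21 (14.4%) had more than 1 transcript in the files, against 47.1% of those genes. The share with whole counts in all stem libraries (within 0.005) was 74.7% against 77.2%. By the start of their IDs, 26 members (17.8%) began with Cs5g and 7 (4.79%) with Cs1g, where 13.0% and 9.46% of the comparison genes do. A further 19 members (13.0%) had IDs of the form orange1.1t, against 14.7%. None of these shares was tested.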

How the data were processed

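RNA of 12 libraries was measured; per the labels' protocols it was poly(A)-selected, fragmented and copied from random primers. The authors deposited 1 table per library with, per the file headers, a gene length, an estimated count (expected_count) not scaled to depth, and an FPKM. The aligner, counter, annotation, build and strand setting are, in the sources used here, not given, so antisense and overlapping genes are uncertain. Members and lists were chosen with earlier results of these data known.

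Expected counts were rounded and fitted with edgeR 4.0.16 (R 4.3.3): filterByExpr, TMM scaling, a model of 6 group means over all 12 libraries, quasi-likelihood tests, Benjamini-Hochberg adjustment over the 21261 genes tested. The test of the root difference minus the leaf difference was added after seeing the data. SE was taken as the size of the log2 fold change over the root of its F value. Alternatives were DESeq2 1.42.0, its size factors, no filter, limma 3.58.1 on log2(FPKM + 1) and log2(FPKM + 0.1), the compared libraries alone, a replicate block, and each library left out. Depth precision covers counting error only.

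Members were named by rule: the 6 with the largest ratio of the lowest stem value to the highest other value plus 0.1, the 6 most abundant in stem, those nearest the threshold, and for each comparison the 2 called members with the largest log2 fold change per direction whose libraries did not overlap and whose higher group had a mean of at least 1 CPM.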

Additional observations from a re-analysis of the deposited data

Results flagged for a closer look

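The difference between Cj and Pt in root was not the same as that in leaf for 45 of the 146 members, by a test of the difference itself (edgeR's quasi-likelihood test in the same fit, adjusted p under 0.05, added after seeing the data). The difference was more positive in root for 39 and more negative for 6, against 19.9% and 17.3% of all genes tested. Among the named members, the log2 difference in root minus that in leaf was 5.29 ± 0.46 (SE) for Cs8g04470, 4.42 ± 0.42 for Cs9g03590 and 2.78 ± 0.43 for Cs3g05115. Cs7g01090 gave 4.32 ± 1.23, with 1 count in Pt roots. Its call was lost without Cj root replicate 2 or without Pt root replicate 1 (adjusted p = 0.0549 and 0.0824, edgeR). Cs9g03590 was called higher on Cj in root and lower on Cj in leaf. Its leaf call was lost in several refits given above, among them that with the replicate number as a block. In the other direction Cs2g17110 gave -2.55 ± 0.65, Cs2g20010 -1.52 ± 0.34 and Cs9g04630 -1.20 ± 0.36, with adjusted p-values from 0.00382 to 0.0199 in edgeR for these 3. The call for Cs9g04630 was lost without any 1 of the 4 root libraries (adjusted p from 0.0531 to 0.0643, edgeR). Groups of 2 libraries are too small to test whether a library stands apart.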

How the results depend on the processing

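The count of 146 members was 472 with a 2-fold and 46 with an 8-fold margin, 257 on the libraries numbered 2 alone, and 310 on trees on Cj alone and 315 on trees on Pt alone without the window; it was 116 after division by TMM factors, and 138 to 169 with each library left out. The number of members called between roots was 54, with 38 to 60 when libraries were left out. In leaf it was 6, with 10 by DESeq2, where 8 had no adjusted p, 2 by limma on log2(FPKM + 0.1), 3 with the 4 leaf libraries, and 2 to 29 with libraries left out; 29 came without Cj leaf replicate 1, and 2 without either Pt leaf library. Limma on log2(FPKM + 1) gave 3 higher and 1 lower there. For leaf minus root the counts were 86 on Cj (71 to 93) and 100 on Pt (86 to 101), and for the root minus leaf difference 45 (31 to 63). FPKM without TMM scaling moved the median of all genes in leaf minus root from 0.12 to 0.51 on Cj, where the members stood at 1.03, and from 0.17 to 0.50 on Pt, where they stood at 2.05 (limma, log2(FPKM + 0.1)). The summed level in Cj over Pt roots was 1.99 (1.88 to 2.12 with libraries left out), 2.27 without the 10 most abundant members and 2.61 as a median of levels relative to stem. For Pt leaf over Pt root the ratio was 5.09 (4.81 to 5.41), 4.38 without the 2 most abundant members, 3.37 in TMM-scaled CPM and 7.30 as a relative median. Cj over Pt in leaf ran from 0.551 to 0.993 and Cj leaf over Cj root from 1.41 to 2.54 with libraries left out. The cause of these shifts was not tested. With all libraries in the fit, 37.0% of members were called between roots and 4.11% in leaf, against 51.7% and 8.31% of all genes tested. For leaf minus root it was 58.9% against 80.5% on Cj and 68.5% against 79.6% on Pt. The root minus leaf difference gave 30.8% against 37.1%. For most other settings the share over all genes is not given, so shifts in these counts may be shared by all genes. For named members, 574 of 605 refits kept direction and call, 31 lost the call and 0 reversed.

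With the replicate number as a block the counts were 53 in root, 6 in leaf, 86 and 101 for leaf minus root on Cj and Pt. The numbers are not stated to mark a tree, and same-numbered libraries were not treated as pairs. Between organs on the same rootstock, their deviations correlated at -0.004 to 0.07 on Cj and at 0.0006 to 0.02 on Pt. Between the rootstocks, where no tree can be shared, the correlation was -0.06 in root, 0.07 in leaf and 0.13 in stem. Low counts limit the results outside the stem: 13 members had no count in any root library and 5 in any leaf library.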

Other observations

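When the 6 libraries of trees on Cj and the 6 of trees on Pt were each searched alone, without the window on the ratio between rootstocks, 310 and 315 genes met the stem criteria. Both lists held 207 genes, which is 66.8% of the Cj list and 65.7% of the Pt list. Of the 108 genes found on Pt alone, 17 had a stem value under 5 FPKM in trees on Cj; for 35 of the others the highest value outside the stem on Cj was in root and for 56 in leaf. Of the 103 genes found on Cj alone, 28 had a stem value under 5 FPKM in trees on Pt, and the highest value outside the stem on Pt was in root for 31 and in leaf for 44 of the others.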
